A study of Mus musculus with 12 samples.

Results

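The genes described here carry out MHC class II presentation: H2-Aa, H2-Ab1, H2-Eb1, H2-DMa, H2-DMb1, Cd74 and Ciita. They were taken by gene symbol from the table of counts, where each symbol stands once, so 7 of 30452 genes were chosen. All 7 were abundant enough to test, in a table of which 19189 genes were.

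RNA was sequenced from injured mouse sciatic nerve 14 days after the injury, in the bridge (new tissue that joins the nerve ends) and in the distal stump (the nerve beyond it, cut off from its neurons). Control mice (CTL) were P0-CreERT2:YFPfl/fl:Nf1+/+, and Nf1 KO mice were P0-CreERT2:YFPfl/fl:Nf1fl/fl. Mice of all 4 groups thus carried the Cre transgene and the YFP reporter. This transgene makes a tamoxifen-dependent Cre in myelinating Schwann cells, so only recombined Schwann cells lose Nf1, which encodes neurofibromin, a protein that switches RAS off. Each library was made from 6 nerve fragments of 0.5 mm pooled from several mice, with 3 libraries for each region and genotype. The p-values measure the spread between such pools.

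MHC class II molecules show peptides from taken-up proteins to CD4+ T cells. The molecule is a pair of chains, in these genes H2-A (H2-Aa with H2-Ab1) and H2-E (whose beta chain is H2-Eb1). Cd74, the invariant chain, guides newly made class II molecules to endosomes and fills their groove. There H2-DM (H2-DMa with H2-DMb1) exchanges the last piece of Cd74 for peptide, and H2-O (H2-Oa with H2-Ob) restrains H2-DM. Ciita is the coactivator that switches these genes on. Dendritic cells, B cells and many macrophages express the set, and macrophages enter a damaged nerve in large numbers.

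In the mm10 assembly 5 of the 7 genes lie within the H2 region of chromosome 17. H2-DMa spans chr17:34119541-34139101, H2-DMb1 chr17:34153072-34160230, H2-Ab1 chr17:34257689-34269419, H2-Aa chr17:34282744-34287823 (minus strand) and H2-Eb1 chr17:34305867-34316674. Ciita spans chr16:10480059-10528418. Exons of H2-DMa overlap those of Brd2, and exons of Ciita those of Dexi, each on the other strand. The strand setting of the counting is not given in the sources used here, so reads of these neighbours may be included.

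Class II promoters are known for an X box, bound by the RFX complex, followed at a fixed distance by a Y box, bound by NF-Y. This element recruits Ciita, and it is shown because it is the known point of control of this gene family. The RefSeq promoter table (GRCm38.p6, the assembly of mm10) held windows for 4 of the 7 genes. The 250 bases before the start were searched for the X box core GNAAC followed after 20 to 30 bases by GATTGG, the inverse of the CCAAT core of the Y box. H2-Aa, H2-Eb1 and H2-DMb1 held this arrangement on their own strand, and the windows of H2-DMa did not. Of 4 related genes outside the set, H2-Oa, H2-Ob and H2-Eb2 also held it and H2-DMb2 did not. Among all 32851 promoter windows 0.286% held it on the gene's strand and 0.551% on either strand. The spelling of the pattern was chosen after the sequences had been read, and a match of letters is not a measured binding site. The stretches of H2-Aa (chr17:34287847-34287924, minus strand), H2-Eb1 (chr17:34305756-34305832, plus strand) and H2-Ob (chr17:34238798-34238872, plus strand) are printed 5′ to 3′ with the X and Y cores in capitals.
H2-Aa: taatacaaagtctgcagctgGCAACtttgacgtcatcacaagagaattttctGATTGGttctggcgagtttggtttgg
H2-Eb1: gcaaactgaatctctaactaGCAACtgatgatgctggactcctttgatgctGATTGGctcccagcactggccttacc
H2-Ob: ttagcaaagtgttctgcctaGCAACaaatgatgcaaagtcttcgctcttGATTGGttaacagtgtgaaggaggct
The 3 stretches share the core GCAAC, with 27, 26 and 24 bases before GATTGG in H2-Aa, H2-Eb1 and H2-Ob.

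Library totals ran from 18821445 to 38981819 counts, and the scarcest gene of the set, Ciita, had at least 242 counts in every library. Nf1 stood at 60.1 to 67.4 CPM (counts after each library is scaled to the same size) in CTL bridge and 42.4 to 54.7 CPM in Nf1 KO bridge. In the distal stump it stood at 57.0 to 69.7 CPM in CTL and 42.3 to 43.1 CPM in Nf1 KO, without overlap in either region. Some libraries stood apart. Skeletal muscle markers summed to 6000 and 5309 CPM in CTL bridge 1 and 3 against 820.1 CPM in CTL bridge 2. Neutrophil markers summed to 1200 CPM in Nf1 KO bridge 1 against 96.1 and 123 CPM in its group, and to 577 CPM in Nf1 KO distal 1 against 260 and 247 CPM. In Nf1 KO distal 1, 24.5% of the counts fell on Gm15662, a non-coding gene. The mean log2 CPM of 4 Y-linked genes was 4.63 to 5.64 in CTL bridge and 3.36 to 5.13 in Nf1 KO bridge, against 4.80 to 5.53 and 3.32 to 4.69 for the distal stump of CTL and Nf1 KO mice, and the sex of the pooled mice is not given in the labels used here. This mean thus ran lower in Nf1 KO, without overlap in the distal stump, so a covariate made from it cannot fully separate sex from genotype. With this mean as a covariate 5 of the 7 genes were called higher in the Nf1 KO bridge, beside 2196 of 19189 genes called in either direction. The Schwann cell marker Sox10 was present in every library, at 62.3 to 115 CPM.

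The level of each gene per length is given as RPKM (CPM per kilobase of all annotated exons). In CTL bridge Cd74, which spans chr18:60803848-60812652, was the most abundant, at 583 ± 61.2 RPKM (SD, n = 3). H2-Eb1 followed at 274 ± 24.8 RPKM, H2-Aa at 222 ± 31.8 and H2-Ab1 at 202 ± 18.8 RPKM. H2-Aa and H2-Ab1 did not differ beyond their spread. The peptide exchange genes were far lower, with H2-DMb1 at 45.2 ± 0.638 RPKM and H2-DMa at 17.0 ± 2.17 RPKM, and Ciita stood lowest at 1.21 ± 0.109 RPKM. Cd74 stood first and H2-DMb1, H2-DMa and Ciita last in each of the 4 groups. With the longest transcript as length the mean over all libraries of H2-Ab1 rose from 244 to 516 RPKM, so the order of the 3 chain genes depends on the annotation. Together H2-Aa, H2-Ab1, H2-Eb1 and Cd74 took 0.280 to 0.336% of all counts of a CTL bridge library and 0.343 to 0.458% of an Nf1 KO one. The share was 0.268 to 0.352% in the distal stump of CTL mice and 0.321 to 0.380% in that of Nf1 KO mice.

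**Figure D1:**
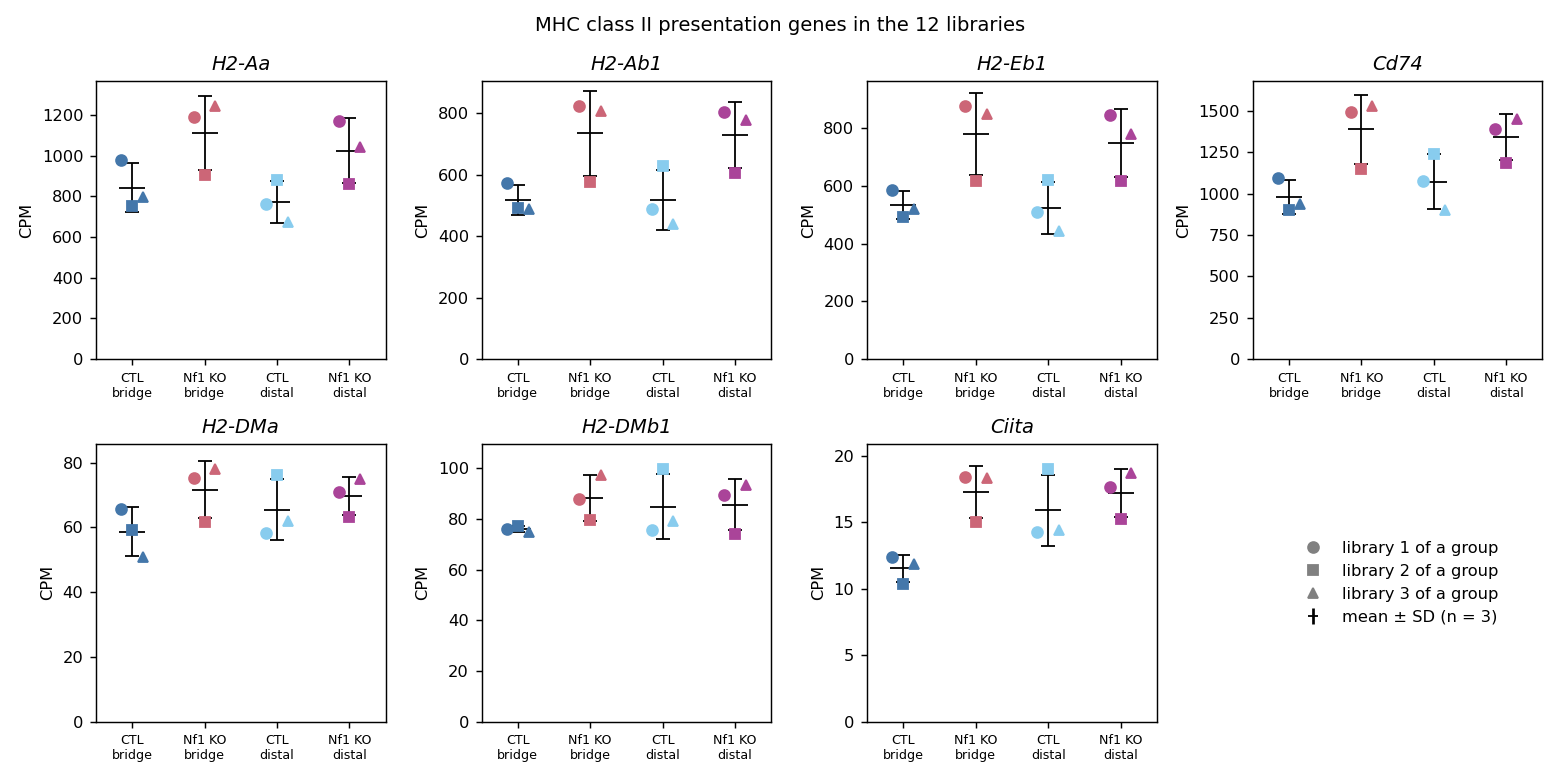
Level of each of the 7 genes in CPM (vertical axes, from 0) in the 12 libraries by group, with the mean and SD of 3 libraries as bars. In the bridge the Nf1 KO libraries of Cd74 stand at 1152 to 1529 CPM, above the CTL libraries at 900.1 to 1095 CPM, whereas in the distal stump the groups overlap for every gene.

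The first comparison asks how class II genes of the bridge differ when Schwann cells lose Nf1. The coactivator Ciita and the invariant chain Cd74 were higher in the Nf1 KO bridge, Ciita 1.50-fold and Cd74 1.42-fold. The chain genes H2-Eb1, H2-Ab1 and H2-Aa had estimates of similar size that missed the threshold, and the H2-DM genes had smaller ones. In all, 2 of 7 genes passed an adjusted p of 0.05, both higher, beside 14.6% of all genes tested (7.81% higher and 6.76% lower). The median log2 fold change of the 7 was 0.50, against -0.0039 over all genes. In bulk tissue more cells of a type and more RNA per cell cannot be told apart, and the leukocyte gene Ptprc was 1.47-fold higher in the same comparison.

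In library order 1 to 3, CTL bridge held 12.4, 10.4 and 11.9 CPM of Ciita, and Nf1 KO bridge 18.4, 15.0 and 18.4 CPM. Every Nf1 KO library was above every CTL library. The log2 fold change was 0.58 (SE 0.14, edgeR adjusted p = 0.0179). With CTL bridge 2 left out the adjusted p of Ciita was 0.0644, with Nf1 KO bridge 1 left out 0.0632 and with Nf1 KO bridge 3 left out 0.0576. It was 0.0933 without the muscle-rich CTL bridge 1 and 3, where the 1 library left is assumed to vary like the other groups, and 0.0715 without the neutrophil-rich Nf1 KO bridge 1 and distal 1.

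Cd74 stood at 1095, 900.1 and 940.0 CPM in CTL bridge and at 1492, 1152 and 1529 CPM in Nf1 KO bridge, again without overlap. Its log2 fold change was 0.51 (SE 0.14, edgeR adjusted p = 0.0385). Nf1 KO bridge 2 and CTL bridge 1 came closest to each other. Leaving out CTL bridge 2 or 3 gave Cd74 an adjusted p of 0.117 or 0.101, leaving out Nf1 KO bridge 1 or 3 gave 0.122 or 0.116, and leaving out CTL distal 1 gave 0.0530. It was 0.153 without the muscle-rich and 0.130 without the neutrophil-rich libraries.

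Among the chain genes, H2-Eb1 came closest to the threshold. It stood at 586, 493 and 518 CPM in CTL bridge and at 875, 617 and 849 CPM in Nf1 KO bridge, where all Nf1 KO libraries were higher (log2 fold change 0.55, SE 0.17, edgeR adjusted p = 0.0524). H2-Ab1 stood at 574, 491 and 489 CPM against 823, 576 and 806 CPM. Its groups nearly touched but did not overlap (0.50, SE 0.17, edgeR adjusted p = 0.0773). H2-Aa stood at 979, 750.2 and 799 CPM against 1191, 905 and 1242 CPM, and its groups overlapped, since Nf1 KO bridge 2 was below CTL bridge 1 (0.40, SE 0.16, edgeR adjusted p = 0.126). Nf1 KO bridge 2 was the lowest of its group for all 7 genes. Without it the adjusted p of H2-Eb1 was 0.0252 and that of H2-Ab1 0.0344.

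The genes of the peptide exchanger H2-DM stood closer to CTL. H2-DMa was at 65.8, 59.3 and 50.9 CPM in CTL bridge and 75.2, 61.7 and 78.0 CPM in Nf1 KO bridge, with overlap (log2 fold change 0.29, 95% interval 0.00 to 0.58, edgeR adjusted p = 0.174). H2-DMb1 was at 76.1, 77.0 and 74.8 CPM against 87.9, 79.4 and 97.4 CPM, without overlap (0.22, 95% interval -0.04 to 0.48, edgeR adjusted p = 0.258). In all 5 of the 7 genes had Nf1 KO bridge libraries all above CTL, where 17.8% of all genes tested did. For each of these 5 the two-sided p was 0.1 by exact permutation, the smallest value that 3 libraries against 3 allow. The adjusted p of 5 genes of the set is plotted against the setting of the fit.

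**Figure D2:**
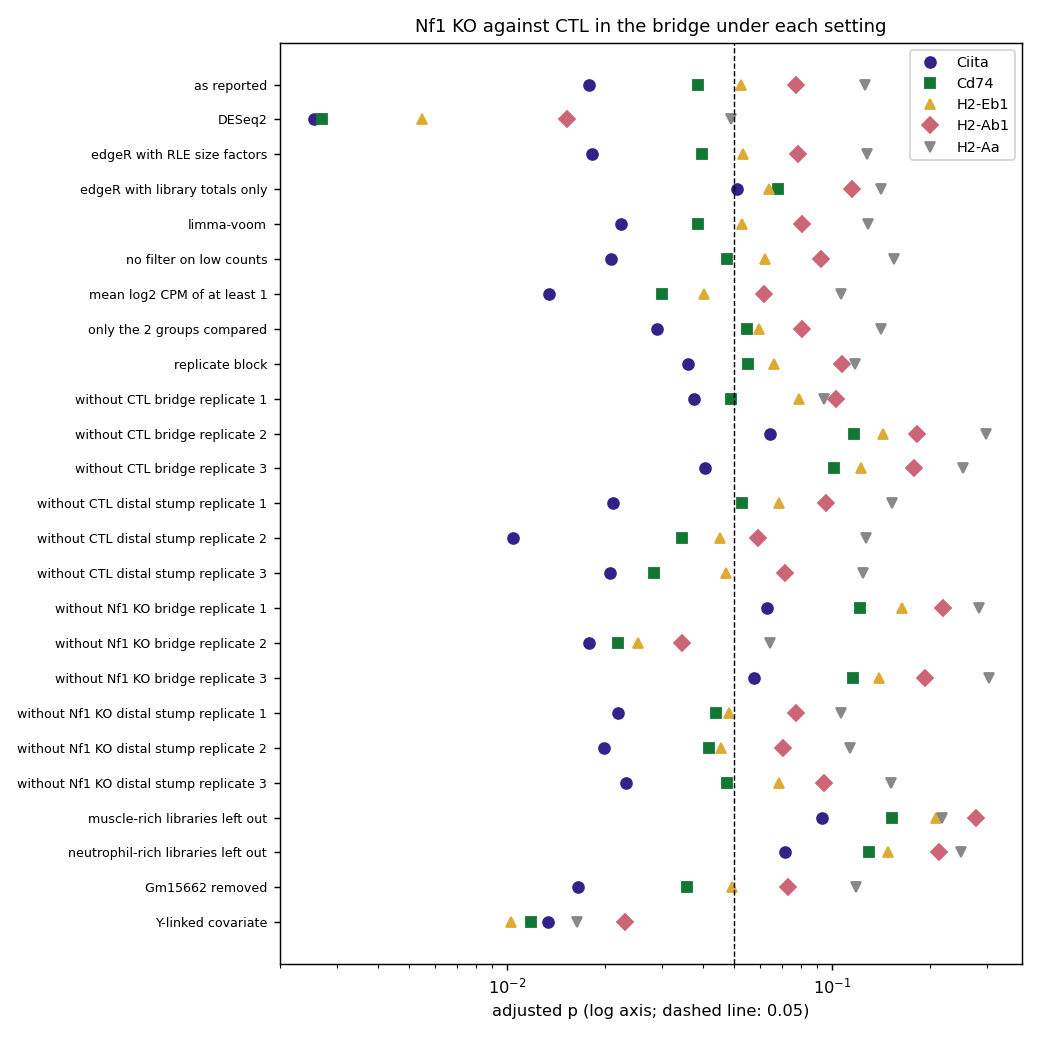
Adjusted p (horizontal log axis) of Ciita, Cd74, H2-Eb1, H2-Ab1 and H2-Aa for Nf1 KO against CTL in the bridge, under the reported fit and each alternative (rows), with 0.05 as a dashed line. Ciita lies left of the line in 18 of 24 alternatives, Cd74 in 14, H2-Eb1 in 9, H2-Ab1 in 3 and H2-Aa in 2.

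In the distal stump none of the 7 genes passed the threshold with edgeR, beside 8.14% of all genes (4.45% higher and 3.69% lower). An unadjusted edgeR p under 0.05 was found for 4 of the 7, beside 4391 of 19189 genes. DESeq2 called 2 of the 7, beside 2238 of 18209 genes. The median log2 fold change of the 7 was 0.32, against -0.0014 over all genes. The chain genes had estimates close to those in the bridge, H2-Eb1 at 0.51 (95% interval 0.14 to 0.89, edgeR adjusted p = 0.0950), H2-Ab1 at 0.49 (0.11 to 0.88, edgeR adjusted p = 0.116) and H2-Aa at 0.41 (0.05 to 0.76, edgeR adjusted p = 0.155). Cd74 was at 0.32 (0.01 to 0.64, edgeR adjusted p = 0.210). Ciita was at 0.11 (-0.18 to 0.41, edgeR adjusted p = 0.684), H2-DMa at 0.09 (-0.20 to 0.38, edgeR adjusted p = 0.743) and H2-DMb1 at 0.01 (-0.25 to 0.27, edgeR adjusted p = 0.972). With library totals alone as scale, which moves the median of all genes by -0.19, these last 3 estimates were negative.

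H2-Eb1 stood at 508, 622 and 443 CPM in CTL distal stump and 847, 618 and 780.5 CPM in Nf1 KO distal stump. H2-Ab1 stood at 488, 629 and 439 CPM against 804, 606 and 779 CPM, and H2-Aa at 762, 877 and 674 CPM against 1172, 858 and 1043 CPM. In each of the 3 chain genes CTL distal 2, the highest of its group, was above Nf1 KO distal 2, the lowest of its own. Cd74 stood at 1078, 1239 and 903 CPM against 1389, 1185 and 1452 CPM, and Ciita at 14.3, 19.0 and 14.4 CPM against 17.7, 15.2 and 18.7 CPM. H2-DMa stood at 58.3, 76.1 and 62.1 CPM against 71.1, 63.3 and 74.9 CPM. H2-DMb1 stood at 75.7, 99.6 and 79.1 CPM against 89.2, 74.1 and 93.3 CPM. CTL distal 2 was the highest library of its group and Nf1 KO distal 2 the lowest of its group for all 7 genes.

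Whether the difference between genotypes itself differed between regions was tested as an interaction. The interaction of genotype and region was called in 0 of 19189 genes with edgeR, although 2534 had an unadjusted p under 0.05, and DESeq2 called 413 genes with none of the 7 among them. Interaction estimates of the 7 ran from -0.01 for H2-Aa to 0.47 for Ciita. That of Ciita had an SE of 0.19, an unadjusted edgeR p of 0.0328 and an adjusted p of 0.328.

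Bridge and distal stump were then compared within each genotype. In CTL the bridge had less Ciita by estimate, with its libraries at 10.4 to 12.4 CPM all below those of the distal stump at 14.3 to 19.0 CPM. The log2 fold change was -0.46 (SE 0.14, edgeR adjusted p = 0.0572). It missed the threshold, while DESeq2, a stricter filter on low genes and the Y-linked covariate each called it. The same CTL bridge libraries enter the genotype comparison above. The other 6 genes lay between -0.16 and 0.13. With edgeR 0 of the 7 were called, beside 9.85% of all genes (5.15% higher and 4.71% lower). An unadjusted edgeR p under 0.05 was found for 1 of the 7, beside 4789 of 19189 genes. In Nf1 KO all 7 lay between 0.01 and 0.12. With edgeR 0 were called, beside 15.2% of all genes (7.78% higher and 7.41% lower), and with DESeq2 0, beside 3491 of 19122. An unadjusted edgeR p under 0.05 was found for 0 of the 7, beside 5674 of 19189 genes. Ciita was at 0.01 there (95% interval -0.29 to 0.30).

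**Figure D3:**
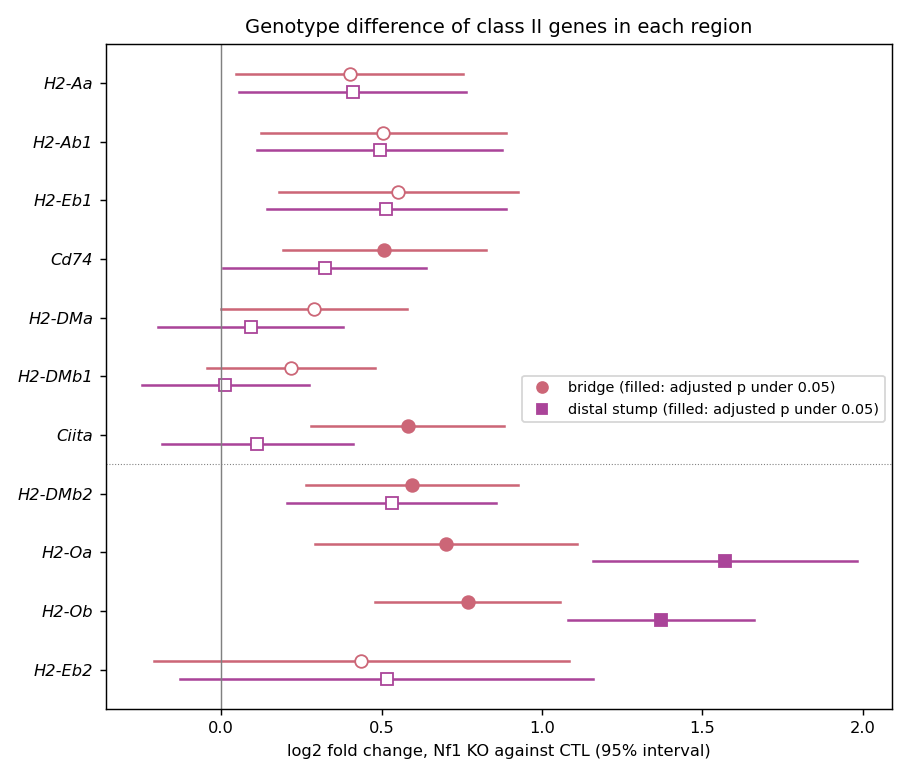
Log2 fold change of Nf1 KO against CTL (horizontal axis, 95% interval as lines) in the bridge (circles) and the distal stump (squares) for the 7 genes above the dotted line and for H2-DMb2, H2-Oa, H2-Ob and H2-Eb2 below it. H2-Oa and H2-Ob lie farthest to the right, at 1.57 and 1.37 in the distal stump.

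Over all genes, an unadjusted edgeR p under 0.05 was found for 5570 of 19189 between genotypes in the bridge and 4391 in the distal stump. DESeq2 called 3420 and 2238 of 18209. The counts of each list below stand beside these and the edgeR shares above. The related class II genes outside the 7 were tested as a list of 5 in the table, 4 of them abundant enough. In the bridge 3 of 4 rose and 0 fell, with a median of 0.65, and in the distal stump 2 of 4 rose and 0 fell, with a median of 0.95. The genes that rose in both regions were H2-Oa and H2-Ob, the chains of the H2-DM inhibitor H2-O.

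H2-Ob stood at 6.24, 4.98 and 4.79 CPM in CTL bridge and 8.35, 9.20 and 9.64 CPM in Nf1 KO bridge. Its distal stump values were 4.16, 4.58 and 5.07 CPM in CTL and 13.1, 10.8 and 11.8 CPM in Nf1 KO. All Nf1 KO libraries were above all CTL libraries of their region. H2-Ob rose by 0.77 on that scale in the bridge (SE 0.13, edgeR adjusted p = 0.0042) and by 1.37 in the distal stump (SE 0.13, edgeR adjusted p = 0.00032). Both calls of H2-Ob held in 24 of 24 alternatives.

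H2-Oa stood at 5.12, 3.01 and 4.30 CPM in CTL bridge and 6.38, 6.21 and 7.55 CPM in Nf1 KO bridge. Its distal stump values were 4.03, 3.12 and 3.70 CPM in CTL and 10.3, 11.8 and 10.2 CPM in Nf1 KO, with no overlap in either region. H2-Oa rose by 0.70 in the bridge (SE 0.18, edgeR adjusted p = 0.0290) and by 1.57 in the distal stump (SE 0.19, edgeR adjusted p = 0.0010). The distal call held in 24 of 24 alternatives. The bridge call was lost without CTL bridge 2 or 3 or any 1 Nf1 KO bridge library (H2-Oa adjusted p 0.0514 to 0.0923). Within Nf1 KO, H2-Oa was lower in the bridge than in the distal stump (-0.68, SE 0.18, edgeR adjusted p = 0.0301), a call lost without Nf1 KO bridge 1 or 2 or Nf1 KO distal 2 or 3 (0.0653 to 0.0980). The interaction was -0.87 for H2-Oa (SE 0.26, edgeR adjusted p = 0.221) and -0.60 for H2-Ob (SE 0.18, edgeR adjusted p = 0.228).

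H2-DMb2 encodes a near-copy of H2-DMb1, with 27.2% of the 50-base stretches of H2-DMb1 present in it, so the split of reads between them is uncertain. H2-DMb2 stood at 12.2, 9.96 and 11.0 CPM in CTL bridge and 19.1, 14.8 and 16.0 CPM in Nf1 KO bridge, without overlap. It rose by 0.59 in the bridge (SE 0.15, edgeR adjusted p = 0.0241). That call of H2-DMb2 was lost without CTL bridge 2 or 3 or Nf1 KO bridge 1 or 3 (0.0502 to 0.0888). Its distal stump values were 11.5, 16.0 and 11.5 CPM in CTL against 17.6, 18.0 and 20.9 CPM in Nf1 KO (0.53, SE 0.15, edgeR adjusted p = 0.0533). H2-Eb2, a second beta chain gene of the H2-E type, was scarce at 0.876 to 2.35 CPM and was not called (0.44, SE 0.29 in the bridge and 0.52, SE 0.29 in the distal stump). H2-Ea-ps, the locus of the H2-E alpha chain, is annotated as a polymorphic pseudogene. It had 4 counts in CTL bridge 3 and 0 counts in the other 11 libraries. Almost no RNA of an alpha chain to pair with H2-Eb1 was thus counted. The level of H2-Eb1 is therefore not a measure of H2-E molecules.

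Within each library the genes were also set against each other, which removes differences in depth. H2-Oa and H2-Ob summed to 8.01, 5.87 and 7.23 CPM per 100 CPM of H2-DMa and H2-DMb1 in CTL bridge and to 9.03, 10.9 and 9.80 in Nf1 KO bridge. Distal stump values were 6.11, 4.38 and 6.21 in CTL and 14.6, 16.5 and 13.1 in Nf1 KO. The ratio was 1.42-fold higher in the Nf1 KO bridge and 2.66-fold higher in the Nf1 KO distal stump, with no overlap in either.

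H2-DMb1 made 15.5, 15.8 and 18.0 CPM per 100 CPM of H2-Ab1 in CTL distal stump and 11.1, 12.2 and 12.0 in Nf1 KO distal stump. Every Nf1 KO library was below every CTL library (0.715-fold), and likewise for H2-DMa (0.757-fold), Ciita (0.769-fold) and Cd74 (0.888-fold) per H2-Ab1. In the bridge the same 4 ratios overlapped between genotypes. The 4 share H2-Ab1, whose own distal difference was not called, so they are not 4 separate results. H2-Aa per H2-Ab1 overlapped in the distal stump (0.937-fold). Of single genes 13.2% were lower there without overlap, and no such share was computed for ratios. H2-Eb1 followed H2-Ab1 most closely, at 0.989 to 1.07 CPM per CPM of H2-Ab1 over all 12 libraries. Each ratio without overlap had p = 0.1 by an exact two-sided permutation test.

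**Figure D4:**
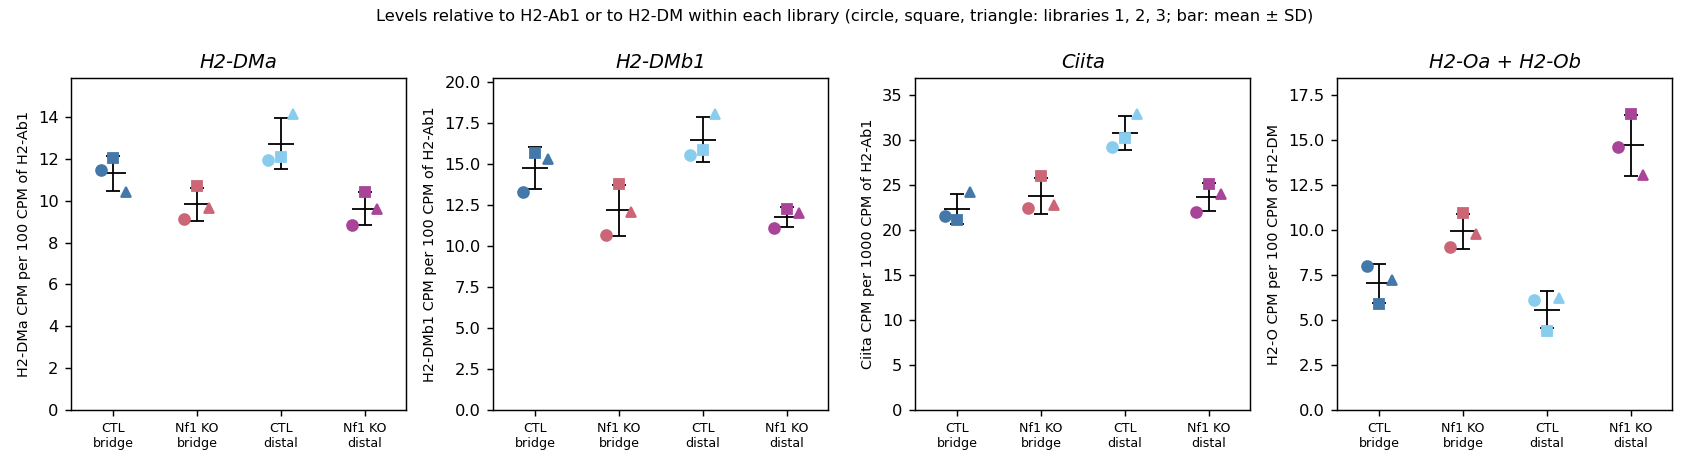
Ratios within each library (vertical axes, from 0) by group: H2-DMa and H2-DMb1 per 100 CPM and Ciita per 1000 CPM of H2-Ab1, and H2-Oa plus H2-Ob per 100 CPM of H2-DMa plus H2-DMb1, with mean and SD of 3 libraries. In the distal stump H2-DMb1 per H2-Ab1 is 11.1 to 12.2 in Nf1 KO against 15.5 to 18.0 in CTL, and the H2-O ratio is 13.1 to 16.5 against 4.38 to 6.21.

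The shape of the 7 genes over the libraries was compared as the root mean square difference of log2 CPM after centring each gene on its mean over the 12 libraries. H2-Ab1 and H2-Eb1 were the closest pair at 0.0376, and H2-Eb1 and H2-DMb1 the farthest at 0.245. H2-DMa and H2-DMb1 were 0.0896 apart, and the gene closest to Ciita was Cd74 at 0.140. Among 14447 other genes with a mean log2 CPM of at least 1, the 8 closest to the mean of the 7 were Ptpn22 (0.101), Aven (0.113), Tk1 (0.114), Dera (0.119), 9930111J21Rik1 (0.125), Ptpro (0.126), Myd88 (0.130) and Hpcal1 (0.132). The 7 genes themselves lay from 0.0523 (Cd74) to 0.143 (H2-DMb1) from that mean, which holds their own values but not those of the 8. Ciita, at 0.135, and H2-DMb1 were farther from it than these 8.

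Genes that process Cd74 or turn class II molecules over formed a list of 12, all tested. In the bridge 1 rose and 1 fell with genotype (median 0.01), and in the distal stump edgeR called 0 of 12 (1 with an unadjusted p under 0.05, 1 called by DESeq2). March1, a ubiquitin ligase that removes class II molecules from the cell surface, stood at 17.1, 15.7 and 18.4 CPM in CTL bridge and 25.1, 23.7 and 26.2 CPM in Nf1 KO bridge. It rose by 0.55 without overlap (SE 0.08, edgeR adjusted p = 0.0025), a call kept in 24 of 24 alternatives. Ctsl, a lysosomal protease that can cut Cd74, fell by 0.52 (SE 0.14, edgeR adjusted p = 0.0296), from 298, 310 and 445 CPM to 242, 234 and 257 CPM. That call of Ctsl was lost without CTL bridge 3 or any 1 Nf1 KO bridge library (0.0501 to 0.0917).

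Between regions 6 of the 12 were lower in the CTL bridge than in the CTL distal stump and 0 higher. The calls of the endosomal proteases Ctss and Lgmn held in 2 of 12 fits with 1 library left out. The other 4 genes were March1 (-0.41, SE 0.08), the lysosomal proteases Ctsb (-0.66, SE 0.14) and Ctsd (-0.77, SE 0.17), and Cd83 (-0.53, SE 0.12), which opposes March1 (edgeR adjusted p 0.0145 to 0.0221). Each of these 4 calls was lost without CTL bridge 1, CTL bridge 2 or CTL distal 1, and those of Ctsb, Ctsd and Cd83 also without CTL distal 2 (March1, Ctsb, Ctsd and Cd83 adjusted p 0.0514 to 0.0877). In Nf1 KO Ctsd, Ctsb and Cd83 were lower and Sppl2a, a protease that cleaves a membrane-bound fragment of Cd74, was higher. Ctsd (-1.17, SE 0.18, edgeR adjusted p = 0.0021) and Ctsb (-0.78, SE 0.14, edgeR adjusted p = 0.0052) kept their calls in 12 of 12 fits with 1 library left out. Cd83 (-0.48) and Sppl2a (0.30) kept theirs in 8 and 4 of 12. Of 10 macrophage and monocyte markers 2, Cd68 and Lyz2, were lower in the bridge in each genotype, and 8 were not called. The list medians were -0.21 in CTL and -0.20 in Nf1 KO, and 4.71% and 7.41% of all genes were called lower. Cd68, a lysosomal protein abundant in macrophages, was at -0.82 on the log2 scale in CTL (SE 0.19, edgeR adjusted p = 0.0242). In Nf1 KO it was at -0.95 (SE 0.19, edgeR adjusted p = 0.0091). With 1 library left out, the CTL calls of Cd68 and Lyz2 were each kept in 8 of 12 fits. The part of macrophages in the protease values was not tested.

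The factors that bind class II promoters were a list of 9 (Rfx5, Rfxap, Rfxank, Nfya, Nfyb, Nfyc, Creb1, Crebbp and Ep300). Between genotypes edgeR called 0 of 9 in the distal stump, beside 8.14% of all genes (1 with an unadjusted p under 0.05, 0 by DESeq2). In the bridge 1 of 9 rose (median 0.06), beside 7.81% of all genes. That gene was Nfya, a subunit of NF-Y, at 43.5, 44.1 and 43.8 CPM in CTL bridge and 51.3, 61.1 and 57.6 CPM in Nf1 KO bridge (0.37, SE 0.07, edgeR adjusted p = 0.0083, or 0.127 without the muscle-rich libraries). Interferon gamma is known to induce Ciita. Of 8 genes of its signalling axis 0 were called by edgeR or DESeq2 in any of the 4 group comparisons, with 1 unadjusted p under 0.05 for genotype in each region. Ifng itself had 0 to 24 counts per library, too few to show a difference (-0.82, SE 1.18 in the bridge). Its receptor gene Ifngr1 was at 0.15 in the bridge (SE 0.07, edgeR adjusted p = 0.177) and at 0.16 in the distal stump (SE 0.07, edgeR adjusted p = 0.208).

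Co-stimulatory and T cell contact genes were a list of 9. In the bridge 3 rose and 0 fell (median 0.25), and in the distal stump 3 rose and 2 fell (median 0.20). Icosl, the ligand of the T cell receptor ICOS, rose in both regions, from 11.7, 10.6 and 9.69 CPM to 15.5, 13.2 and 15.4 CPM in the bridge (0.46, SE 0.09, edgeR adjusted p = 0.0089) and from 10.8, 11.0 and 10.3 CPM to 16.9, 15.2 and 15.5 CPM in the distal stump (0.57, SE 0.09, edgeR adjusted p = 0.0053). Its calls held in 12 of 12 fits with 1 library left out in each region, and the adjusted p of Icosl in the bridge was 0.0749 without the muscle-rich libraries. Cd80, a ligand of CD28, rose by 0.57 in the bridge (SE 0.15, edgeR adjusted p = 0.0301) and 0.63 in the distal stump (SE 0.15, edgeR adjusted p = 0.0283). The Cd80 calls were lost without CTL bridge 1 or 2 or Nf1 KO bridge 1 or 2 (0.0881 to 0.113), and without any 1 distal library (0.0543 to 0.0875). Cd86, the other CD28 ligand, rose by 0.49 in the bridge (SE 0.15, edgeR adjusted p = 0.0480), a call of Cd86 kept in 3 of 12 fits with 1 library left out.

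The genes that fell in the distal stump were Pdcd1lg2 and Cd274, both ligands of the inhibitory receptor PD-1. Pdcd1lg2 fell by 3.40 (SE 0.85, edgeR adjusted p = 0.0341), with 39, 144 and 65 counts in CTL and 6, 18 and 0 counts in Nf1 KO. The log2 fold change of Pdcd1lg2 was -2.60 without CTL distal 2 and -4.58 without Nf1 KO distal 2. The Pdcd1lg2 call was lost without CTL distal 2 or 3 or Nf1 KO distal 1 (0.0575 to 0.117). Cd274 fell by 0.98 (SE 0.26, edgeR adjusted p = 0.0438), a call of Cd274 kept in 3 of 12 such fits. Lag3, a receptor that binds class II, rose by 0.43 (SE 0.11, edgeR adjusted p = 0.0398), a call of Lag3 lost without any library other than Nf1 KO distal 3 (0.0518 to 0.108). T and NK cell markers, 8 genes, had 0 calls between genotypes in either region by edgeR or DESeq2 and 0 unadjusted p under 0.05.

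MHC class I genes were counted for comparison. In the distal stump edgeR called 0 of 12 genes (median -0.06). An unadjusted edgeR p under 0.05 was found for 3 there, beside 4391 of 19189 genes, and DESeq2 called 2, beside 2238 of 18209. In the bridge 2 of 12 rose by edgeR (median 0.09), beside 7.81% of all genes. Both, Calr (0.34, SE 0.08, edgeR adjusted p = 0.0168) and Pdia3 (0.49, SE 0.10, edgeR adjusted p = 0.0075), encode chaperones of the endoplasmic reticulum that serve many proteins. Calr lost its call without CTL bridge 1 or Nf1 KO bridge 2 or 3 (0.0537 to 0.0679), and Pdia3 kept its call in 12 of 12 such fits but not without the muscle-rich libraries (0.0808).

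Leukocyte markers are given beside these results. Ptprc, which marks leukocytes, was at 84.3, 72.5 and 86.9 CPM in CTL bridge and 132, 104 and 122 CPM in Nf1 KO bridge (0.55, SE 0.11, edgeR adjusted p = 0.0084). Distal stump levels were 108, 107 and 91.8 CPM against 126, 114 and 106 CPM (0.17, SE 0.11, edgeR adjusted p = 0.392). The summed CPM of H2-Aa, H2-Ab1, H2-Eb1 and Cd74 per CPM of Ptprc was 38.4, 36.3 and 31.6 in the CTL bridge libraries and 33.3, 31.2 and 36.3 in those of Nf1 KO. For the distal stump it was 26.2, 31.4 and 26.8 against 33.3, 28.6 and 38.3. Genotypes overlapped in both regions, as they did per CPM of Csf1r, a macrophage gene. Per summed CPM of the 5 pan-leukocyte markers they overlapped too, at 0.978-fold in the bridge and 1.04-fold in the distal stump. Per summed CPM of 10 macrophage and monocyte markers the class II sum was higher in Nf1 KO without overlap. That ratio was 1.61-fold in the bridge and 1.59-fold in the distal stump (exact permutation p = 0.1 in each). A sum of CPM is set mainly by its most abundant markers. By group median this sum was lower in Nf1 KO in both regions, whereas the mean log2 CPM of the same 10 markers was higher. That mean was 6.45 to 6.73 in CTL bridge and 6.69 to 7.09 in Nf1 KO bridge. In the distal stump it was 6.68 to 6.95 against 7.00 to 7.18. The ratio thus depends on how the markers are combined. Of 5 pan-leukocyte markers Ptprc and Laptm5 rose in the bridge, and edgeR called 0 in the distal stump (medians 0.55 and 0.46), where DESeq2 called 2 and 2 had an unadjusted p under 0.05.

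Flt3, a receptor of dendritic cells and their precursors, was at 1.64 to 2.93 CPM in CTL bridge and 5.93 to 7.84 CPM in Nf1 KO bridge (1.54, SE 0.20, edgeR adjusted p = 0.0012), and at 2.55 to 3.13 CPM against 8.31 to 8.46 CPM in the distal stump (1.53, SE 0.20, edgeR adjusted p = 0.0017). Set against Flt3, the sum of the 4 class II genes was lower in Nf1 KO in both regions, without overlap. It was 0.466-fold in the bridge and 0.462-fold in the distal stump (exact permutation p = 0.1 in each). Set against the summed CPM of 10 dendritic cell markers, it was 1.16-fold in the Nf1 KO bridge, with overlap. In the Nf1 KO distal stump that ratio was 1.45-fold, without overlap (exact permutation p = 0.1).

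Of 10 dendritic cell markers Flt3, Zbtb46, Clec9a, Cd209a and Batf3 rose in the bridge and 0 fell (median 0.60). Flt3, Zbtb46, Clec9a and Cd209a also rose in the distal stump, where Itgax fell (median 0.45). Their summed level was 146 to 194 CPM in CTL bridge, 185 to 218 CPM in Nf1 KO bridge, 203 to 285 CPM in CTL distal stump and 199.8 to 223 CPM in Nf1 KO distal stump. Of 10 macrophage and monocyte markers Itgam, Aif1 and Ccr2 rose in the bridge and Adgre1 and Aif1 in the distal stump, and 0 fell (medians 0.41 and 0.26). In the bridge 9 of these 10 had an unadjusted edgeR p under 0.05, beside 5570 of 19189 genes, and DESeq2 called 7, beside 3420 of 18209. For the distal stump the counts were 5, beside 4391, and 3, beside 2238. The calls of Flt3 in both regions, Clec9a, Cd209a and Ccr2 in the bridge and Zbtb46 and Aif1 in the distal stump held in all 12 fits with 1 library left out. The other 8 of these 15 calls were lost in 2 to 10 of the 12. The macrophage and monocyte list summed to 3770.3 to 5369 CPM in CTL bridge, 3251 to 4388 CPM in Nf1 KO bridge, 5827 to 7905 CPM in CTL distal stump and 5516 to 5762 CPM in Nf1 KO distal stump. Of 6 B cell and plasma cell markers 4 were abundant enough to test, 0 were called by edgeR or DESeq2 between genotypes in either region, 0 had an unadjusted p under 0.05, and their sum was 9.8 to 24.2 CPM over all libraries. None of the leukocyte lists had a marker at 0 in any library except that of B cells. The part of leukocyte numbers in the class II values was not tested.

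**Figure D5:**
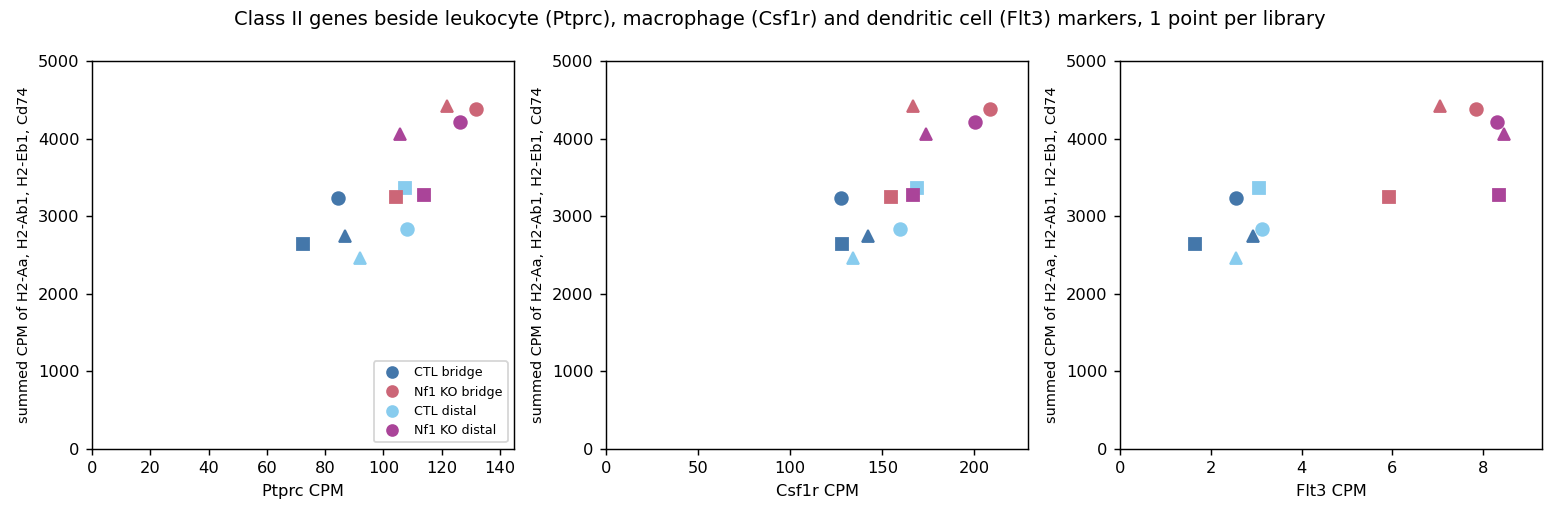
Summed CPM of H2-Aa, H2-Ab1, H2-Eb1 and Cd74 (vertical axis) against the CPM of Ptprc, Csf1r and Flt3 (horizontal axes, all from 0), with 1 point per library coloured by group and shaped by library number as in the plot of levels by library. Flt3 separates the genotypes, with 1.64 to 3.13 CPM in CTL and 5.93 to 8.46 CPM in Nf1 KO, whereas the class II sum of Nf1 KO libraries number 2 lies among the CTL libraries.

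Schwann cell markers are given in the same way. Ngfr, a receptor of repair Schwann cells, was at 104, 108 and 174 CPM in CTL bridge and 73.0, 77.9 and 69.7 CPM in Nf1 KO bridge, without overlap (-0.81, SE 0.18, edgeR adjusted p = 0.0161). That call of Ngfr was lost without Nf1 KO bridge 1 (0.0537) or 3 (0.0549). In distal tissue Ngfr was at -0.61 (SE 0.18, edgeR adjusted p = 0.0702). Sox10, a transcription factor of the Schwann cell lineage, was at -0.15 in the bridge (SE 0.10, edgeR adjusted p = 0.396) and -0.01 in the distal stump (SE 0.10, edgeR adjusted p = 0.978). The part of Schwann cells in the class II values was not tested.

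Markers of other tissues of the nerve moved in the same comparisons. All 4 adipocyte markers fell in the Nf1 KO bridge (Adipoq, Plin1, Cidec and Lep, median -1.29), with a summed level of 37.4 to 90.7 CPM against 118 to 190.1 CPM in CTL, and edgeR and DESeq2 called 0 of them in the distal stump, where 1 had an unadjusted p under 0.05. With 1 library left out the bridge calls of Adipoq, Plin1, Cidec and Lep were kept in 9, 11, 8 and 1 of 12 fits. The Adipoq call was lost without CTL bridge 3 or Nf1 KO bridge 1 or 2, the Cidec call without these or CTL bridge 1, and the Plin1 call without Nf1 KO bridge 2. The Lep call was kept only without CTL bridge 2, and its log2 fold change was -1.01 without CTL bridge 3 against -1.93 with all libraries. Cldn5, a tight junction gene of endothelium, fell by 1.10 on the log2 scale in the bridge (SE 0.14, edgeR adjusted p = 0.0010) and by 0.99 in the distal stump (SE 0.14, edgeR adjusted p = 0.0022), and both calls were kept with any 1 library left out. Of 5 endothelial markers 1 was called in the bridge and 3 in the distal stump, all lower. The distal calls of Pecam1 and Kdr were kept in 2 and 4 of 12 such fits. The endothelial sum was 243 to 267 CPM in CTL bridge against 204 to 217 CPM in Nf1 KO bridge. Among 5 fibroblast markers Col1a1, a collagen gene, rose by 0.77 on that scale in the bridge (SE 0.10, edgeR adjusted p = 0.0015) and Dcn, a matrix proteoglycan gene, fell by 0.37 (SE 0.07, edgeR adjusted p = 0.0061), while Col1a1 and Lum rose in the distal stump. The fibroblast sum was 6898 to 7188 CPM in CTL bridge against 7207 to 7322 CPM in Nf1 KO bridge. The part of these cell types in the class II values was not tested.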

How the data were processed

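Total RNA was depleted of ribosomal RNA and made into libraries with a directional kit, per the labels' protocols. CASAVA 1.8.2, cutadapt 1.2.1, DESeq2 and the genome build mm10 stand in the submitters' processing notes. No source used here names the aligner or the counter. The deposited values are whole numbers per gene, not scaled to library size, and were read as rounded estimated counts, because low values are missing among the shortest genes, although no source states how they were made, and were used unchanged. The 30452 gene IDs were matched to GENCODE M21 (30123 found). Of all genes, 5433 had no count.

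With edgeR 4.0.16 in R 4.3.3, genes were filtered by filterByExpr, scaled by TMM and fitted over all 12 libraries with 1 coefficient per group (glmQLFit, glmQLFTest). Adjustment was by Benjamini-Hochberg over 19189 genes at 0.05. The SE is the log2 fold change over the square root of F. A floor of 3 counts corresponds to 0.0771 to 0.154 CPM per library, which covers counting error only. The procedure was tested on simulated counts. In each simulated comparison 67, 67 and 66 of 19189 genes were changed, at absolute log2 fold changes of 0.5, 1 and 2. The real comparison of genotypes in the bridge called 2795 genes. The shares recovered therefore need not hold for the real data. At a simulated absolute log2 fold change of 0.5, 31.3% of changed genes were recovered between genotypes in the bridge and 26.9% in the distal stump. For the interaction the share was 5.97%, and between regions 22.4% in CTL and 28.4% in Nf1 KO. At 1 the shares ran from 46.3 to 68.7%, and false calls made 1.65 to 6.09% of calls.

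The 7 genes, the lists and the tests were chosen with earlier results of these data known. From each list the called genes were named, at most 4 per comparison by p, with H2-DMb2, H2-Ea-ps, Ifng and Ifngr1 in addition; H2-Eb2, Cd274, Ctss, Lgmn and the cell markers named were picked after their values were seen. Alternatives were DESeq2 1.42.0, limma-voom of limma 3.58.1, other scalings and filters, a replicate block, a Y-linked covariate and libraries left out. Some of the Schwann cell markers listed are not reported here.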

Additional observations from a re-analysis of the deposited data

How the results depend on the processing

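The count of 2 of 7 genes higher in the Nf1 KO bridge was 5 with DESeq2, 0 with library totals as scale, 1 when only the 2 bridge groups were fitted, 0 without the muscle-rich or without the neutrophil-rich libraries, 5 with the Y-linked covariate, and 0 to 4 with 1 library left out. With the replicate number as a block it was 1, since Cd74 had an adjusted p of 0.0551. Same-numbered libraries correlated by only -0.0640 to 0.139 in their deviations and so were not paired. In the distal stump 0 became 2 with DESeq2 and 3 with the Y-linked covariate, and in CTL between regions 0 became 1 (Ciita, lower) with DESeq2, with a mean log2 CPM of at least 1 and with the Y-linked covariate. The cause was not tested, and the Y-linked covariate itself differs with genotype, as given above. Distal genotype estimates near 0 turned negative with library totals (H2-DMa -0.10, H2-DMb1 -0.18, Ciita -0.0815). H2-DMb1 was at -0.022 without the neutrophil-rich libraries and -0.0632 to 0.14 with 1 library left out. Ciita between regions in Nf1 KO was at -0.0003 with only its 2 groups, -0.0229 without the neutrophil-rich libraries, -0.0550 with the Y-linked covariate and -0.0775 to 0.10 with 1 library left out. Per length of the longest transcript the mean over all libraries went from 712 to 848 RPKM for Cd74, 244 to 516 for H2-Ab1, 49.8 to 59.6 for H2-DMb1, 19.3 to 33.1 for H2-DMa and 1.62 to 2.58 for Ciita. Bridge estimates of the 7 genes were positive in 24 of 24 alternatives. Over all genes, the 2795 calls in the bridge ran from 762 without the muscle-rich libraries to 3420 with DESeq2, and the 1562 in the distal stump from 803 with only its 2 groups to 2238 with DESeq2. Between regions the 1891 calls in CTL ran from 527 to 2643 and the 2914 in Nf1 KO from 1622 to 3491.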

Other observations

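Genes with other roles lie among the class II genes on chromosome 17. Between H2-Oa and H2-Ab1 stand Brd2, a chromatin reader, Psmb8 and Psmb9, subunits of the immunoproteasome, and Tap1 and Tap2, which carry peptides for class I molecules. None of these 5 was called by edgeR between genotypes. In the bridge Brd2 was at -0.07 (SE 0.05), Psmb9 at 0.28 (SE 0.28), Psmb8 at 0.16 (SE 0.20), Tap1 at 0.07 (SE 0.23) and Tap2 at -0.03 (SE 0.12) on the log2 scale. In the distal stump Brd2 was at 0.05 (SE 0.05), Psmb9 at -0.04 (SE 0.28), Psmb8 at -0.02 (SE 0.20), Tap1 at -0.09 (SE 0.23) and Tap2 at -0.18 (SE 0.12). H2-Ob, which lies between Tap2 and H2-Ab1, rose by 0.77 and 1.37 in the same comparisons.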
